A study of Mus musculus with 2 samples.

Results

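The semaphorin, plexin and ephrin guidance families were measured as mRNA in osteoblasts, the cells that build bone, made to undergo apoptosis after isolation from young and from old mice. Members were the protein-coding genes whose symbols begin with Sema, Plxn, Nrp, Efna, Efnb, Epha or Ephb followed by their class or number, 53 of the 55487 genes in the deposited table. They comprised 20 semaphorins, 9 plexins, 2 neuropilins, 8 ephrins and 14 Eph receptors, and no symbol had more than 1 identifier. The young library came from cells labelled young with a treatment label of day 0, and the old library from cells labelled old with day 5, so age and day cannot be told apart. For both, cells grown out of bone pieces were used after 3 passages as marrow mesenchymal stem cells, osteogenic medium was given for 3 days, and ultraviolet light for 0.5 h brought over 90% of the cells to take up Trypan Blue, a dye that enters leaky cells. The sources used here do not give strain, sex, age in months or the number of animals behind a library.

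There was 1 library per age, so the spread between animals or cultures could not be estimated, no test was run, and each difference below is one between 2 libraries. The libraries held 16333396 (young) and 18114336 (old) reads, worked out from the values themselves. FPKM is the number of fragments scaled to gene length and library size. Gene positions are from GENCODE M21 on build GRCm38. Log2 ratios are of FPKM + 1, old over young, and understate differences of low genes. Brackets after a ratio of FPKM hold its 95% counting interval, which covers counting error only. In bulk RNA, fewer cells of a type and less RNA per cell cannot be told apart. Osteoblast markers were present at very unlike levels. Runx2, the lineage transcription factor, was at 92.1 (young) and 72.7 FPKM (old), and the collagen gene Col1a1 at 8568 and 6788 FPKM. Alpl was low, at 2.78 (young) and 3.28 FPKM (old) with 36 and 47 reads, and Ibsp was at 6.31 and 5.90 FPKM. Bglap, osteocalcin of mature osteoblasts, had 3 and 6 reads. Of 12 osteoblast lineage genes 11 passed the filter, with a median log2 ratio of −0.26 and a wide range. Sp7, a transcription factor of osteoblast differentiation, was at 55.5 (young) and 28.9 FPKM (old), a log2 ratio of −0.92. Spp1, the bone matrix protein osteopontin, went the other way at 224 (young) and 1732 FPKM (old), a log2 ratio of 2.95. It was the one gene of the list past 2-fold, where 1.97% of all genes past the filter were 2-fold higher. Of 10 endothelial markers, 8 had under 10 reads in each library, and the list summed to 0.779 and 0.690 FPKM, with Emcn, Cldn5 and Erg at 0 in both. Neuron markers summed to 10.2 and 12.6 FPKM, mostly Tubb3 and Map2, with Rbfox3, Snap25, Elavl4 and Nefl at 0. Ptprc, the leukocyte marker, had 1 read and none, and the leukocyte list summed to 4.69 and 4.98 FPKM. The osteoclast list summed to 77.0 and 87.0 FPKM, from Ctsk, Mmp9 and Nfatc1 above all, with Calcr and Ocstamp at 0. Schwann cell and glia markers summed to 179 and 196 FPKM, with Sox10 at 0. Markers of pericytes and smooth muscle summed to 1589 and 1384 FPKM, a sum set by Acta2 at 1404 (young) and 1171 FPKM (old). The other 3 of them past the filter were higher in the old library, at log2 ratios of 0.41 for Pdgfrb, 0.29 for Cspg4 and 0.14 for Tagln, and the median over all 4 was 0.21. The part of other cell types in the results was not tested.

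Semaphorins are secreted or membrane-bound signals first known for steering growing axons. They act through plexins, whose inner domain switches off small GTPases of the Ras and Rap type, and most class 3 semaphorins need a neuropilin as co-receptor. Ephrins are cell-surface ligands, held by a lipid anchor (class A) or a membrane-spanning segment (class B), and they signal on contact with Eph receptor tyrosine kinases in both cells. In bone, osteoblast-lineage Sema3A restrains osteoclast formation and favours bone formation, Sema4D from osteoclasts acts on plexin-B1 of osteoblasts, and ephrin-B2 on osteoclasts signals to EphB4 on osteoblasts.

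None of the 31 members with a mean of at least 1 FPKM was 2-fold or more higher or lower in the old library on the FPKM + 1 scale, where 1.97% of all 12561 genes past that filter were higher and 0.868% lower. The members' log2 ratios ran from −0.71 for the receptor Epha4 to 0.88 for the secreted Sema3b, with a median of −0.06 against −0.07 over all genes. At 1.5-fold, a threshold added after the values were seen, Sema3b, Plxnc1 and Sema5a were higher and Epha4, Plxnb1 and Ephb3 lower. Over all genes 5.52% were higher and 4.47% lower by that rule. Of the 3 higher members, Sema5a passed the filter only through the old library, where it is high, so no share of members is set against the 5.52%. Sema5a, Plxnb1 and Ephb3 lay just past that threshold, at 0.59, −0.60 and −0.60. With a pseudocount of 0.1 FPKM, Sema5a, at 39 and 102 reads, was past 2-fold, at 1.11. For the values as deposited, the counting interval of the ratio lay wholly above 1 for 9 of the 31 and wholly below 1 for 13. Over all genes these shares were 20.6% and 33.5%. Sema5a is among the 9, so that count is not set against the 20.6%. All members together took 0.229% (young) and 0.219% (old) of the reads.

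**Figure D1:**
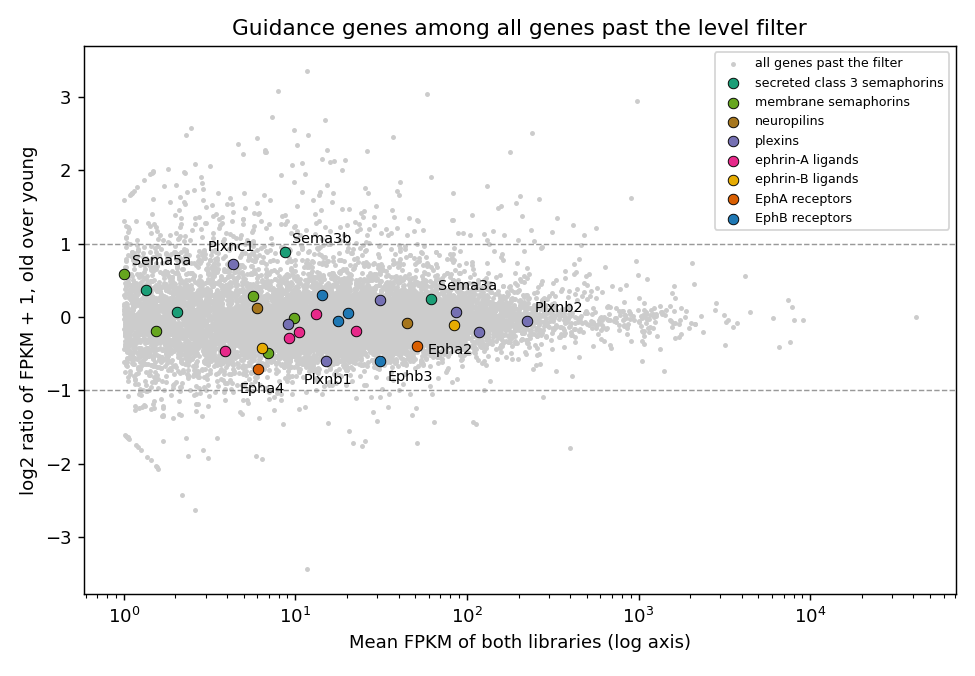
Log2 ratio of FPKM + 1, old over young, against the mean FPKM of both libraries (log axis), for all 12561 genes averaging 1 FPKM or more (grey) and the 31 members past that filter (coloured by role). Dashed lines mark 2-fold; every coloured point lies between them, from Epha4 at −0.71 to Sema3b at 0.88.

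Members are described by role group through counts, and no test between groups was run. Of the 9 semaphorins past the filter 6 had log2 ratios above 0, with a median of 0.25, while of the 13 ephrins and Eph receptors past it 3 were above 0, with a median of −0.20. Among all genes 40.4% were above 0. The 6 semaphorins and their median include Sema5a, which passed the filter only through the old library, where it is high. Their count is therefore not set against that share. These counts are for the values as deposited, and Sema4c, Ephb2 and Plxnb2, all below 0 here, move above it when the libraries are rescaled to a median log2 ratio of 0. Summed FPKM was 93.5 (young) and 111 (old) for all 20 semaphorins, 550 and 526 for plexins and neuropilins, 159 and 142 for ephrins, and 154 and 127 for Eph receptors. The sums follow the few abundant genes of each family, Sema3a, Plxnb2, Efnb1 and Epha2 first among them.

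**Figure D2:**
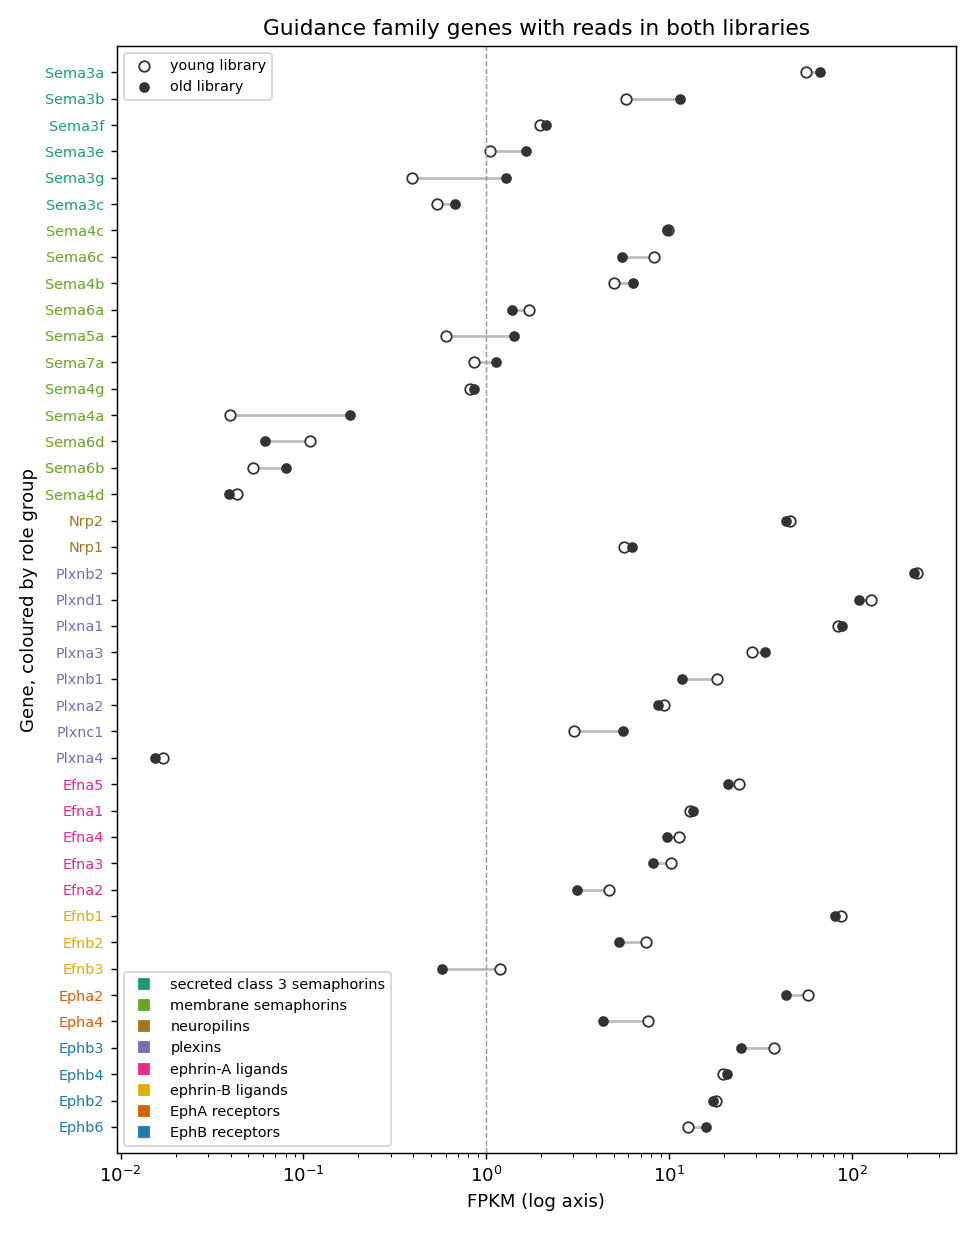
FPKM (log axis) of the 41 members with reads in both libraries, by role group, with the young library as open and the old as filled points. The dashed line marks 1 FPKM; the pairs lie close together for the abundant genes, such as Plxnb2 at 228 and 219.5 FPKM, and farther apart for Sema3g, Sema5a and Sema4a, which had at most 105 reads in a library.

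Promoters are shown for the 4 members with the largest log2 ratios in either direction, among the 14 members past the filter with 1 RefSeq window (GRCm38.p6) that crosses no annotated exon. Each sequence is the 250 bases before the start on the gene's own strand, and capitals mark matches on either strand to 6 motifs. These were the GC box with letters GGGCGG, the E-box with CACGTG, the AP-1 site with TGACTCA, the cyclic AMP response element with TGACGTCA, the TATA box with letters TATAAA, and the hypoxia response core with ACGTG, which the E-box also holds.
Plxnc1 (chr10:94944846-94945095, minus strand): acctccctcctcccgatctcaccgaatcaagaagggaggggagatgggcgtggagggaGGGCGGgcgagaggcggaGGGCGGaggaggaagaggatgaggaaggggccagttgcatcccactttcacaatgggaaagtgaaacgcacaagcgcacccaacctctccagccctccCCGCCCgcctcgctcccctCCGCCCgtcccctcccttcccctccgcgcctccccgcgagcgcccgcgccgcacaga
Efnb2 (chr8:8661243-8661492, minus strand): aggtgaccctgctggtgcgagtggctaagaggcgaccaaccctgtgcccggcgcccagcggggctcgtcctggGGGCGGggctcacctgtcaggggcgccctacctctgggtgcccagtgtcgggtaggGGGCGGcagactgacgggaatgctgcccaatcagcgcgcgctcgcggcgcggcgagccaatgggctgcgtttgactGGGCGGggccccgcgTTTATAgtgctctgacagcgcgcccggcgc
Epha2 (chr4:141300971-141301220, plus strand): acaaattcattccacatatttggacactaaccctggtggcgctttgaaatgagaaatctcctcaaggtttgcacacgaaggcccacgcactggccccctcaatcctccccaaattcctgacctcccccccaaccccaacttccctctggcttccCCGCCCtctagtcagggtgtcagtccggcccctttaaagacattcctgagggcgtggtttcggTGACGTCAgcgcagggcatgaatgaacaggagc
Efna2 (chr10:80179232-80179481, plus strand): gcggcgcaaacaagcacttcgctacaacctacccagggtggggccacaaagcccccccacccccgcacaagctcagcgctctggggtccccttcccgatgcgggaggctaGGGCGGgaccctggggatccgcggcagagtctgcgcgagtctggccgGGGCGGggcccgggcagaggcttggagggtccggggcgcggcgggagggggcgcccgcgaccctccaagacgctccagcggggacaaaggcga
All 4 windows hold a GC box, with 4 in Plxnc1, 3 in Efnb2, 2 in Efna2 and 1 in Epha2, as do 42.6% of 21262 windows of protein-coding genes and 46 of the members' own 61 windows. The member windows had a median GC content of 64.4%, against 55.6% for protein-coding genes. The Epha2 window also has 1 cyclic AMP response element, found in 1.92% of coding windows, and the Efnb2 window 1 TATA box, found in 11.6%. The other motifs searched were in none of the 4 windows, and in 6.63% (E-box), 4.06% (AP-1) and 17.8% (hypoxia core) of coding windows. A match describes letters only, and binding was not measured.

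Among the secreted class 3 semaphorins, 4 of 7 passed the filter, all with log2 ratios above 0 and a median of 0.31. Over all genes past the filter 40.4% were above 0, and with 4 genes no direction is read for the group. Sema3a, the osteoprotective ligand, ENSMUSG00000028883, chromosome 5, 13125414 to 13602565, was the main semaphorin mRNA at 56.4 (young) and 67.0 FPKM (old). Its 2330 and 3074 reads, a ratio of 1.19 [1.13 to 1.26], gave 60.3% of all semaphorin FPKM in each library. Sema3b, which signals through neuropilins, ENSMUSG00000057969, chromosome 9, 107597674 to 107609229, was at 5.82 (young) and 11.5 FPKM (old). With 160 and 351 reads, a ratio of 1.98 [1.64 to 2.40], it had the highest log2 ratio of the members (0.88), and 97.3% of all genes past the filter had a lower one. Sema3f, a ligand of neuropilin-2 whose gene lies 72.3 kb from Sema3b, was nearly even, at 1.97 (young) and 2.13 FPKM (old) with 41 and 49 reads, a ratio of 1.08 [0.697 to 1.67]. Sema3e, which binds plexin-D1 without a neuropilin, ENSMUSG00000063531, chromosome 5, 14025276 to 14256689, was at 1.06 (young) and 1.65 FPKM (old), from 80 and 139 reads, a ratio of 1.57 [1.18 to 2.09]. Also on chromosome 5 lie Sema3a, 423 kb away, and Sema3d, which had 0 and 3 reads.

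Below the filter, Sema3g, a semaphorin of vessel walls, was at 0.391 (young) and 1.28 FPKM (old) with 29 and 105 reads, a ratio of 3.26 [2.15 to 5.11]. It was the largest FPKM ratio among members with over 10 reads, and its log2 ratio with the pseudocount was 0.71. Sema3c was at 0.540 (young) and 0.677 FPKM (old), with an interval of the ratio from 0.712 to 2.25 that includes 1.

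Of 13 membrane semaphorins, of classes 4 to 7, 5 passed the filter, with a median of −0.01. Sema4c, a ligand of plexin-B2, ENSMUSG00000026121, chromosome 1, 36548639 to 36558349, was the most abundant at 9.88 (young) and 9.79 FPKM (old), with 351 and 386 reads, a ratio of 0.992 [0.856 to 1.15]. Sema6c, of the transmembrane class that binds A-type plexins, ENSMUSG00000038777, chromosome 3, 95160457 to 95174024, was lower in the old library, 8.24 (young) and 5.57 FPKM (old), with 315 and 236 reads, a ratio of 0.676 [0.568 to 0.802]. Sema4b was at 4.99 (young) and 6.33 FPKM (old) and Sema6a, also a plexin-A ligand, at 1.71 (young) and 1.38 FPKM (old). Sema5a, which carries thrombospondin repeats, ENSMUSG00000022231, chromosome 15, 32244810 to 32696341, stood at 0.602 (young) and 1.42 FPKM (old), from 39 and 102 reads, a ratio of 2.36 [1.62 to 3.50]. Its mean of 1.01 FPKM lay just inside the filter, reached through the old library, and that of Sema7a, 0.993 FPKM, just outside.

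Both membrane semaphorins best known in bone remodelling were near the limit of detection or below the filter. Sema4d, which osteoclasts make, ENSMUSG00000021451, chromosome 13, 51685529 to 51793747, had 1 read in each library. Sema7a, a lipid-anchored semaphorin that binds plexin-C1 and integrins, ENSMUSG00000038264, chromosome 9, 57940112 to 57962865, was at 0.857 (young) and 1.13 FPKM (old), with 26 and 38 reads, a ratio of 1.32 [0.780 to 2.26]. Sema4g stood at 0.820 (young) and 0.859 FPKM (old), while Sema4a, Sema6b and Sema6d had at most 8 reads in a library and Sema4f and Sema5b none.

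The neuropilins, co-receptors for class 3 semaphorins and for VEGF, differed little between the libraries. Nrp2, ENSMUSG00000025969, chromosome 1, 62703285 to 62818695, was at 46.1 (young) and 43.5 FPKM (old) with 4269 and 4466 reads, a ratio of 0.943 [0.904 to 0.984]. Nrp1, through which Sema3A acts in bone, ENSMUSG00000025810, chromosome 8, 128358604 to 128503363, was at 5.69 (young) and 6.26 FPKM (old) with 299 and 365 reads, a ratio of 1.10 [0.942 to 1.29]. Per length, Nrp2 was 8.10 times as high as Nrp1 (young) and 6.94 times (old), or 7.74 and 6.63 times per length of the longest transcript.

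Plexins were the most abundant family, with 7 of 9 past the filter and a median of −0.06, which is the value of Plxnb2. Of the 7, 3 were above 0 as deposited, beside 40.4% of all genes past the filter. Plxnb2, a receptor for class 4 semaphorins, ENSMUSG00000036606, chromosome 15, 89155549 to 89180788, was the highest member at 228 (young) and 219.5 FPKM (old), above 96.7% of all genes past the filter. Its 8009 and 8538 reads, a ratio of 0.961 [0.932 to 0.991], put the counting interval just below 1. Rescaling the libraries to a median log2 ratio of 0 moved Plxnb2 from −0.06 to 0.01, Sema4c from −0.01 to 0.05 and Ephb2 from −0.05 to 0.01, so no direction is given for these 3. Plxnd1, the Sema3e receptor, ENSMUSG00000030123, chromosome 6, 115954811 to 115995005, was at 127 (young) and 109 FPKM (old) with 3727 and 3565 reads, a ratio of 0.862 [0.824 to 0.903]. Its ligand Sema3e was far lower in FPKM in both libraries. Of the A-type plexins, which pair with neuropilins, Plxna1 and Plxna2 were close to even. Plxna1 was at 84.3 (young) and 88.4 FPKM (old), a ratio of 1.05 [1.004 to 1.09]. Plxna2 was at 9.34 (young) and 8.72 FPKM (old), a ratio of 0.933 [0.837 to 1.04]. Plxna3 was at 28.4 (young) and 33.5 FPKM (old), with a ratio of 1.18 [1.08 to 1.28].

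Plxnc1 and Plxnb1 differed most among plexins, in opposite directions. Plxnc1, the Sema7a receptor, ENSMUSG00000074785, chromosome 10, 94790866 to 94944835, was at 3.02 (young) and 5.62 FPKM (old) with 96 and 198 reads, a ratio of 1.86 [1.45 to 2.40] and a log2 ratio of 0.72. Plxnb1, the receptor through which Sema4D limits bone formation, ENSMUSG00000053646, chromosome 9, 109095389 to 109119917, was at 18.3 (young) and 11.7 FPKM (old) with 550 and 391 reads, a ratio of 0.641 [0.562 to 0.731] and a log2 ratio of −0.60. The Plxnb2 to Plxnb1 ratio of FPKM was 12.5 (young) and 18.7 (old), or 19.4 and 29.1 per length of the longest transcript. Plxna4 and Plxnb3 had at most 2 reads in a library.

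**Figure D3:**
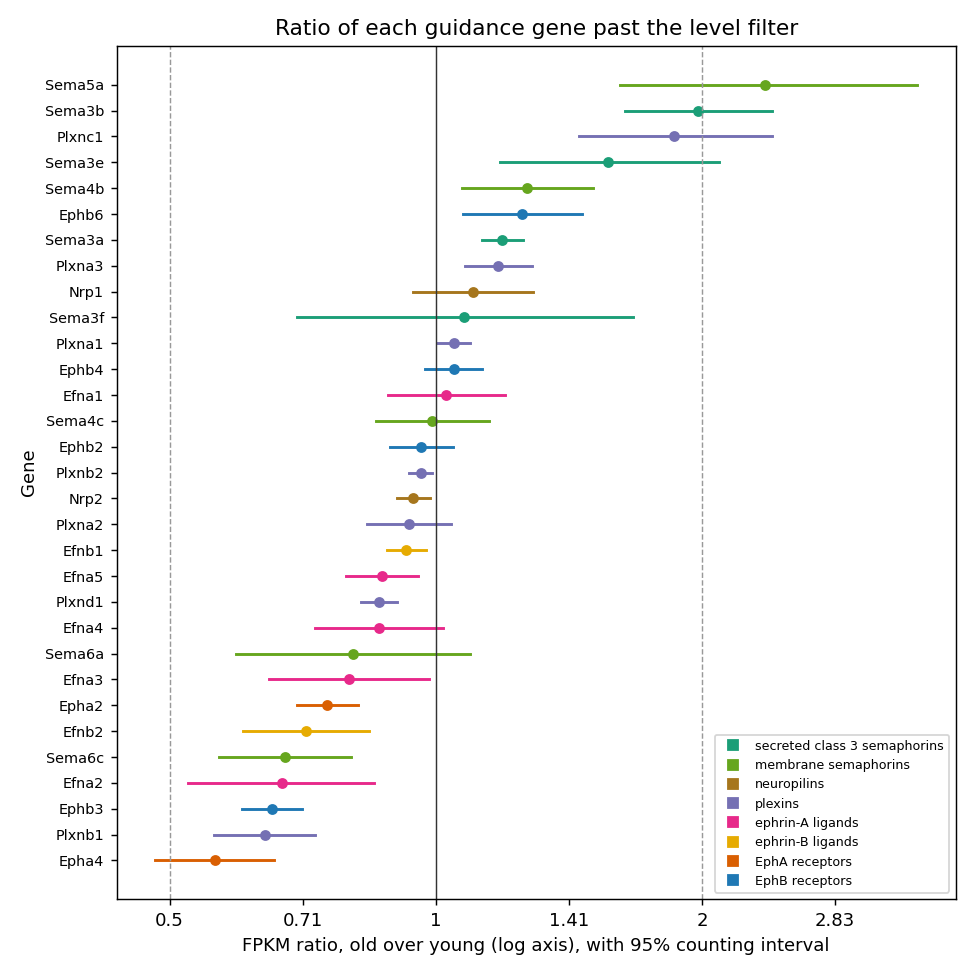
FPKM ratio, old over young (log axis, no pseudocount), of the 31 members with a mean of at least 1 FPKM, ordered by ratio and coloured by role, with 95% counting intervals as bars and dashed lines at 0.5 and 2. Values are as deposited. Intervals lie wholly above 1 for 9 members, led by Sema5a and Sema3b, and wholly below 1 for 13, led by Epha4, Plxnb1 and Ephb3. Sema5a passed the filter only through the old library. The 13 include Plxnb2, whose side of 1 depends on the scaling. They also include Nrp2 and Efnb1, whose log2 ratios were −0.02 and −0.05 after rescaling to a median log2 ratio of 0. Intervals were not worked out again after rescaling.

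All 5 ephrin-A ligands passed the filter, 4 of them below 0, with a median of −0.20. Over all genes past the filter 40.4% were above 0 and the median was −0.07, so with 5 genes no direction is read for the group. Efna5, ENSMUSG00000048915, chromosome 17, 62604184 to 62881317, was the highest as deposited, at 24.1 (young) and 20.9 FPKM (old) with 920 and 887 reads, a ratio of 0.869 [0.792 to 0.954]. Efna2, the osteoclast-side partner of EphA2, ENSMUSG00000003070, chromosome 10, 80179482 to 80190010, was at 4.68 (young) and 3.13 FPKM (old) with 163 and 121 reads, a ratio of 0.669 [0.525 to 0.852]. Efna1, Efna3 and Efna4 lie close together on chromosome 3, with gaps of 32.8 kb and 10.4 kb. Efna1, ENSMUSG00000027954, chromosome 3, 89271733 to 89281142, was at 13.1 (young) and 13.5 FPKM (old) with 322 and 367 reads, a ratio of 1.03 [0.882 to 1.20], the one ephrin above 0. Efna3, ENSMUSG00000028039, chromosome 3, 89313899 to 89322965, was at 10.3 (young) and 8.19 FPKM (old) with 199 and 176 reads, a ratio of 0.797 [0.647 to 0.982]; of its exon bases 14.1% are overlapped by a gene on the other strand. Efna4 was at 11.3 (young) and 9.77 FPKM (old), with an interval of the ratio from 0.730 to 1.02. Such overlap on the other strand was 10.5% for Efna4, 10.7% for Plxna1 and 7.3% for Sema4c. As the strand setting of the counting is not given, its effect on these values was not tested.

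Both ephrin-B ligands past the filter were lower in the old library as deposited, with a median of −0.26. With 2 genes no direction is read for the group, where 40.4% of all genes past the filter were above 0. Efnb1, which patterns skull sutures and acts in osteoblasts, ENSMUSG00000031217, chromosome X, 99136130 to 99148991, was the most abundant ephrin at 87.0 (young) and 80.6 FPKM (old). It had 2888 and 2967 reads, a ratio of 0.926 [0.880 to 0.975]. Its log2 ratio of −0.11 was −0.05 after rescaling to a median log2 ratio of 0, and its interval was not worked out again. Efnb2, ENSMUSG00000001300, chromosome 8, 8617434 to 8661242, was at 7.45 (young) and 5.31 FPKM (old) with 335 and 265 reads, a ratio of 0.713 [0.605 to 0.840]. Efnb3, under the filter, was at 1.19 (young) and 0.572 FPKM (old) with 62 and 33 reads, a ratio of 0.480 [0.305 to 0.744].

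Of 9 EphA receptors 2 passed the filter, and both were lower in the old library. With 2 genes no direction is read for the group, where 40.4% of all genes past the filter were above 0. Epha2, the main receptor of this class in these cells, ENSMUSG00000006445, chromosome 4, 141301240 to 141329384, was at 58.0 (young) and 43.7 FPKM (old) with 1401 and 1172 reads, a ratio of 0.754 [0.697 to 0.816] and a log2 ratio of −0.40. Epha4, which binds ephrins of both classes, ENSMUSG00000026235, chromosome 1, 77367185 to 77515088, was at 7.71 (young) and 4.34 FPKM (old) with 431 and 269 reads, a ratio of 0.563 [0.481 to 0.657]. Its log2 ratio of −0.71 was the lowest of the members, and 2.47% of all genes past the filter had a lower one. Epha8 and Epha10 had at most 3 reads in a library. Epha1, Epha3, Epha5, Epha6 and Epha7 had none in either, which allows each up to 3 reads, from 0.0436 FPKM for Epha5 to 0.0933 FPKM for Epha6 in the young library.

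EphB receptors had 4 of 5 members past the filter, with Ephb4 and Ephb6 above 0, Ephb3 below it and Ephb2 on a side that depends on the scaling. Ephb3, ENSMUSG00000005958, chromosome 16, 21204755 to 21223305, was at 37.8 (young) and 24.6 FPKM (old) with 1496 and 1083 reads, a ratio of 0.653 [0.603 to 0.706] and a log2 ratio of −0.60. Ephb4, the osteoblast receptor for ephrin-B2, ENSMUSG00000029710, chromosome 5, 137350109 to 137378669, was close to even at 19.8 (young) and 20.8 FPKM (old) with 1299 and 1509 reads, a ratio of 1.05 [0.972 to 1.13]. In FPKM it stood 2.66 times (young) and 3.91 times (old) as high as Efnb2, or 4.28 and 6.29 times per length of the longest transcript. Ephb2, ENSMUSG00000028664, chromosome 4, 136647539 to 136835988, was at 18.2 (young) and 17.5 FPKM (old) with 1153 and 1232 reads, a ratio of 0.963 [0.888 to 1.04]. Ephb6, whose kinase domain is inactive, ENSMUSG00000029869, chromosome 6, 41605482 to 41620509, was higher in the old library at 12.7 (young) and 15.9 FPKM (old) with 290 and 403 reads, a ratio of 1.25 [1.07 to 1.46]. By the FPKM as deposited, Ephb3 was thus the highest EphB mRNA in both libraries, at 42.7% (young) and 31.3% (old) of the EphB total. Ephb4 followed at 22.4% and 26.4%. The place of Ephb3 above Ephb4 depends on the gene length used, as given below. Ephb1 had 2 reads and none.

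The order of levels depends on the gene length used, because the deposited values come out as whole reads when the length is averaged over all transcript models of a gene, short ones included. For Plxnb1 that length was 1840 bases against 8649 for its longest transcript, and its rank among the 53 members went from 13 to 25. Nrp2, at 5671 and 6723 bases, went from 7 to 3, and Efnb1 from 4 to 2, while Plxnb2 was first under both. Per longest transcript Ephb4 stood above Ephb3 in the old library, with a ratio of Ephb3 to Ephb4 of 0.656, against 1.19 as deposited. Efna1 also stood slightly above Efna5 in the old library per longest transcript, at 12.4 against 12.1, where the deposited values put Efna5 first. Ratios between the libraries without the pseudocount do not change with the length.

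**Figure D4:**
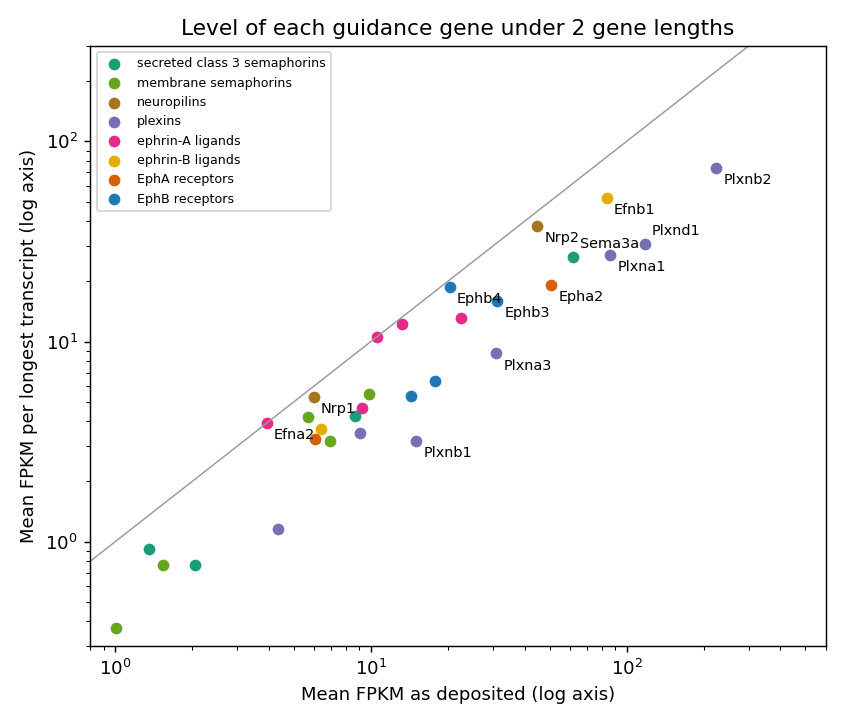
Mean FPKM of both libraries as deposited against the same reads per length of the longest annotated transcript (both log axes), for the 31 members past the filter, coloured by role. Points on the grey line have equal values; Plxnb1 lies farthest below it, moving from rank 13 to 25, while Nrp2 lies close to it.

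Other genes of these pathways were taken from 4 lists. Of 50 partners of semaphorins and plexins, such as the MICAL enzymes that oxidise actin and the Rnd GTPases, 36 passed the filter, with 1 at 2-fold higher, 0 at 2-fold lower and a median log2 ratio of −0.02. That single call stands beside the 1.97% of all genes that were 2-fold higher. The higher one was Flt1, a VEGF receptor, at 16.8 (young) and 35.1 FPKM (old), followed by the MICAL relative Micall2 at 21.2 (young) and 39.3 FPKM (old). Of 46 ephrin and Eph partners 45 had an identifier and 37 passed, with none at 2-fold and a median of 0.07. Pik3r1, a regulatory subunit of PI3-kinase, was at 38.0 (young) and 74.9 FPKM (old) and the gelatinase Mmp9 at 16.5 (young) and 29.5 FPKM (old).

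Among the other guidance families, 4 of 10 Slit and Robo genes passed, with a median of 0.09. Slit2, a secreted ligand, was the one past 2-fold, higher at 6.13 (young) and 14.0 FPKM (old), from 316 and 799 reads, and its receptor Robo2 was at 3.63 (young) and 2.41 FPKM (old). Of 17 netrin family genes 16 had an identifier and 7 passed, with none at 2-fold and a median of 0.03. Netrin-1, Ntn1, was at 28.3 (young) and 47.6 FPKM (old), and the repulsive guidance gene Rgmb at 25.9 (young) and 20.4 FPKM (old). These lists were chosen with earlier results of these data known, and their medians lie beside the −0.07 of all genes. The counts at 2-fold in all 4 lists lie beside 1.97% of all genes higher and 0.868% lower. With so few genes past the filter in a list, a single call or none is not read as a result.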

How the data were processed

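The authors deposited FPKM per gene for 2 libraries, 1 young and 1 old. Per the submitters' processing notes, fastp, STAR, HTSeq and edgeR were used with mouse build mm10; the sources used here give no versions, strand setting or annotation release. From the deposited FPKM, log2 ratios of FPKM + 1, old over young, were computed for genes averaging 1 FPKM or more and called at 2-fold.

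Reads were worked out from the steps of the FPKM values, with gene length taken as the mean length of the GENCODE M21 transcripts (GRCm38). They came out whole within 0.01 read for 97.6% of values above 0 and for all 53 members. Ratio intervals are exact Clopper-Pearson intervals at 95% on these reads, and a gene at 0 was given a limit of 3 reads. Reads are not independent molecules. Count models were not run, because 1 library per group leaves no replicate. The interval steps were run on simulated reads that held counting error only, which is what the intervals assume. That run checks the computation and cannot speak to the spread between cultures or libraries.

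Values in both libraries were given for each member past the filter. Full values went to the 2 most abundant members and the 2 with the largest log2 ratios of each role group, and to members with a known role in bone. For the lists, genes at 2-fold and the 2 largest log2 ratios were named. Promoters were read from RefSeq windows, which 47 of 53 members have. Members and lists were chosen with earlier results of these data known. Alternatives were the pseudocount, the filter, the scaling and the call rule. Python 3.11.15, pandas 2.3.3, numpy 2.4.6, scipy 1.17.1 and matplotlib 3.10.9 were used.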

Additional observations from a re-analysis of the deposited data

How the results depend on the processing

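No paired analysis was possible because there was 1 library per group, and leaving out replicates was not possible. With a pseudocount of 0.1 FPKM, 1 member (Sema5a) was 2-fold higher, all genes gave 408 higher and 236 lower, and the class 3 semaphorin median was 0.43. With a pseudocount of 5 FPKM, all genes gave 101 and 20, the class 3 median was 0.18, the EphA median −0.41 and Epha4 −0.44. Without a filter the medians were −0.42 for ephrin-B ligands and −0.23 for EphA receptors. At a mean of at least 10 FPKM, 16 members remained in the comparison, all genes gave 106 and 27, and the medians were −0.08 for neuropilins, −0.11 for ephrin-B ligands and −0.40 for EphA receptors, over fewer members. The membrane semaphorin median was 0.14 after rescaling to a median ratio of 0 and 0.09 after rescaling without the 10 most abundant genes, both with 32 members past the filter in place of 31. Of the 31 members, Sema4c, Ephb2 and Plxnb2 changed side of 0, only under rescaling to a median ratio of 0. Requiring the counting interval to lie wholly beyond 2-fold left 182 of all genes higher and 39 lower, against 248 and 109 in the main setting, with 0 members either way. Under rules added after seeing the data, 3 members were higher and 3 lower at 1.5-fold, and 9 had intervals wholly above 1 and 13 wholly below. The intervals were not worked out again after rescaling, and the 13 include Plxnb2, so these counts hold for the values as deposited only. Without replicates, none of these differences can be assigned to age, to the day label or to chance between cultures.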
